A study of Mus musculus with 16 samples.

Results

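A set of 10 genes of the extracellular proteolysis system were followed across the RNA sequencing of muscle stem cells (MuSCs), namely 5 matrix metalloproteinases (Mmp2, Mmp9, Mmp12, Mmp14 and Mmp19), 3 tissue inhibitors of metalloproteinases (Timp1, Timp2 and Timp3) and 2 disintegrin metalloproteinases with thrombospondin motifs (Adamts1 and Adamts5). They were taken by symbol from the table of estimated counts, which lists 24411 genes, and all 10 members were found in it. The series holds 16 libraries of mouse MuSCs that were purified from hindlimb muscle by fluorescence-activated cell sorting, with 4 libraries in each of 4 groups. Control MuSCs, labelled wild type, and MuSCs of mice with deletion of TRF2 were taken from uninjured muscle, or at 3 days post injury (3 DPI) after 10 µl of notexin, a snake toxin that destroys myofibers, had been injected into the tibialis anterior. The deletion mice (TRF2 MuSC-cKO) carry floxed alleles of Terf2, the gene of the telomere-binding protein TRF2, and Pax7-CreERT2, a Cre that tamoxifen switches on in cells that express Pax7. Tamoxifen was started in young adults on a C57BL/6 background. The sort kept cells that were negative for CD45, CD31, CD11b and Sca1 and positive for α7-integrin and for VCAM or CD34. The methods of the study speak of biological replicates in general, while the sample labels tie no library to a mouse, so the p-values measure the spread between these libraries.

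Matrix metalloproteinases (MMPs) are zinc-dependent enzymes that are secreted as inactive proenzymes, or anchored in the membrane as MMP14 is, and that cut collagens, laminins, elastin and other matrix proteins. TIMPs bind their active sites, and TIMP2 also joins MMP14 in the complex that activates proMMP2. ADAMTS1 and ADAMTS5 cut the proteoglycans aggrecan and versican and are held in check mainly by TIMP3. In muscle, MuSCs lie under the basal lamina of the myofiber, and proteolysis of this matrix accompanies their activation, their migration and the entry of immune cells after injury.

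Library totals ran from 620406 to 1351095 estimated counts. Terf2 was 76.4 ± 12.5 CPM, the count scaled to a common library total of 1000000, in uninjured control MuSCs and 45.6 ± 13.3 CPM in uninjured TRF2 MuSC-cKO MuSCs (mean ± SD, n = 4), and the difference did not pass the test (log2 fold change -0.62, SE 0.27, adjusted p = 0.199 by edgeR). At 3 DPI Terf2 was 57.8 ± 28.4 CPM in the libraries labelled TRF2 MuSC-cKO and 43.8 ± 6.11 CPM in control libraries (log2 fold change 0.44, SE 0.42), so Terf2 does not back the label of the former, which is therefore used below as a label only. Replicate 3 of the 3 DPI libraries labelled TRF2 MuSC-cKO stood apart. It had a count for 15387 genes against 19996 to 21879 in the other 15 libraries, and its log2 CPM correlated with the other 3 libraries of its group at 0.457 to 0.479 against 0.682 to 0.750 among those 3. The main results that rest on it are given with and without it, and without it Terf2 was 54.7 ± 34.0 CPM in the other 3 libraries (log2 fold change 0.33, SE 0.37).

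All 10 genes are protein coding, and their positions are those of GENCODE M21 on GRCm38. Mmp2 lies at chr8:92827291-92853420 on the plus strand, Mmp9 at chr2:164940780-164955850 (plus), Mmp12 at chr9:7344381-7369499 (plus), Mmp14 at chr14:54431612-54445364 (plus) and Mmp19 at chr10:128790910-128800824 (plus). Timp1 lies at chrX:20870166-20874735 (plus) inside Syn1, Timp2 at chr11:118301069-118355740 on the minus strand, and Timp3 at chr10:86300372-86349506 (plus) inside Syn3. Adamts1 at chr16:85793827-85803113 and Adamts5 at chr16:85856173-85901828 are neighbours on the minus strand, 53059 bases apart. Exons of Mmp12, Mmp19 and Timp3 overlap exons of genes on the opposite strand (Mmp1b for Mmp12, Tmem198b and Gm47093 for Mmp19, Syn3 for Timp3), and the sources used here do not state whether the counting used the strand, so values of these 3 genes may hold reads of the partner.

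Promoter sequences of RefSeq (GRCm38.p6, 250 bases before to 50 bases after a transcript start) were matched for 6 of the 10 members, with 2 starts for Mmp12. The 120 bases upstream of the start are printed for the members that changed with injury in control MuSCs and had an entry, because the question whether genes that move together share promoter letters can be read from them. Mmp2, Mmp9, Mmp19 and Adamts5 were not matched. Capitals mark matches, on either strand, to the AP-1 motif TGANTCA, the TATA box TATAAA or the GC box GGGCGG, which is read as CCGCCC on the other strand.
Mmp12, first start, chr9:7344277-7344396, plus: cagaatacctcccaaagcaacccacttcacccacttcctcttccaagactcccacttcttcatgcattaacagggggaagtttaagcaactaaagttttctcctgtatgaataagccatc
Mmp12, second start, chr9:7347254-7347373, plus: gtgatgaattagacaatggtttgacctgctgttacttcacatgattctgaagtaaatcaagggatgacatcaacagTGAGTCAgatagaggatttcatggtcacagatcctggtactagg
Mmp14, chr14:54431478-54431597, plus: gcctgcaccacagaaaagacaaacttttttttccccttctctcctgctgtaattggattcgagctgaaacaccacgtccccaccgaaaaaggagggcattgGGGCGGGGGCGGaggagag
Timp1, chrX:20870046-20870165, plus: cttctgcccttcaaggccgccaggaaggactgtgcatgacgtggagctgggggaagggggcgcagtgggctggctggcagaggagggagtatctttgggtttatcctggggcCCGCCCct
Timp3, chr10:86300292-86300411, plus: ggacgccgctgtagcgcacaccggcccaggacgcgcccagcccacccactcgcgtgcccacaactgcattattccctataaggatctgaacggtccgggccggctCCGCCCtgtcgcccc
Adamts1, chr16:85803114-85803233, minus: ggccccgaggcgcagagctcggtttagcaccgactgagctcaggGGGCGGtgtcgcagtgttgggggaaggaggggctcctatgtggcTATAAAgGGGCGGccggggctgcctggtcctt

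Within the 300 bases, the AP-1 letters were found only before the second start of Mmp12, at position -44 (TGAGTCA, counted from the first transcribed base as position 0), and 7.81% of all 32851 promoters in the RefSeq table hold them. GC boxes were found in Mmp14 at -19 and -13, in Timp1 at -8, in Timp3 at -15 and 13, in Adamts1 at -147, -76 and -25, and in Timp2 at -37, against 35.7% of all promoters. A TATA box stood at -32 in Adamts1 and at 4 in the second promoter of Mmp12, against 13.6% of all promoters. The members that rose and the members that fell therefore both include genes with GC boxes, and these matches are a description of letters, not of bound sites.

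The first comparison asked which members differ between TRF2 MuSC-cKO and control MuSCs before injury. Mmp2 was higher in TRF2 MuSC-cKO MuSCs, and it was the only one of the 8 members tested that was called, that is, with an adjusted p under 0.02 over all genes tested and a fold change over 1.5. Of all 14048 genes tested, 3.22% were called, 0.584% as higher and 2.63% as lower (82 and 370 genes, or 176 and 212 genes when libraries were scaled by their total alone). The median log2 fold change was 0.23 over the 8 members and 0.06 over all genes. Mmp12 and Timp1 had too few counts to be tested. An unadjusted p under 0.05 was found for 5 of the 8 members and 19.5% of all genes, and groups did not overlap for 4 of the 8 members (Mmp2, Timp2, Timp3 and Adamts1) and 11.6% of all genes.

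Mmp2 encodes gelatinase A, which cuts type IV collagen of the basal lamina and denatured collagens. Its level was 235, 289.9, 193 and 293 CPM in the uninjured control libraries and 339.7, 398, 425 and 549 CPM in the uninjured TRF2 MuSC-cKO libraries. Every TRF2 MuSC-cKO library was above every control library. The log2 fold change was 0.88 with an SE of 0.20 (adjusted p = 0.00309, edgeR quasi-likelihood test). The call was lost without control replicate 1 (adjusted p = 0.0323) or without TRF2 MuSC-cKO replicate 4 (adjusted p = 0.0351), and in 3 alternative fits, while the log2 fold change stayed between 0.73 and 0.96 over the 8 edgeR fits that each left out 1 library.

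The other gelatinase, Mmp9, was a low transcript. It was at 3.57, 4.50, 18.6 and 12.7 CPM in uninjured control libraries and at 28.4, 17.7, 28.6 and 19.1 CPM in uninjured TRF2 MuSC-cKO libraries, from 4 to 16 counts and 14 to 24 counts. The groups met at the third control library, and the log2 fold change of 1.39 (SE 0.53) did not pass the test (adjusted p = 0.122, edgeR). Mmp14, the membrane-type enzyme that activates proMMP2, was at 115 ± 12.1 CPM in control and 109 ± 11.9 CPM in TRF2 MuSC-cKO MuSCs, with a log2 fold change of 0.06 (SE 0.21). Mmp19, a secreted enzyme that cuts basement membrane proteins, was at 23.6 ± 8.78 and 35.0 ± 13.9 CPM (log2 fold change 0.68, SE 0.38, adjusted p = 0.317 by edgeR). Mmp12, the macrophage elastase, had 2 to 17 counts in control and 5 to 8 counts in TRF2 MuSC-cKO libraries.

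Among the inhibitors, Timp2 lay on the other side of Mmp2. Timp2, the most abundant TIMP transcript of these cells, was at 505, 476, 394 and 469 CPM in uninjured control libraries and at 215, 282, 196 and 368 CPM in uninjured TRF2 MuSC-cKO libraries. All 4 TRF2 MuSC-cKO libraries were below all 4 control libraries, with replicate 4 the closest. The log2 fold change of -0.68 (SE 0.20) missed the threshold (adjusted p = 0.0332, edgeR quasi-likelihood test). It passed in DESeq2 (adjusted p = 0.00578), with no filter on low counts (adjusted p = 0.0172), without control replicate 3 (adjusted p = 0.0146) and without TRF2 MuSC-cKO replicate 4 (adjusted p = 0.0101). Other settings moved it further from the threshold. The adjusted p was 0.259 with all 16 libraries in 1 fit and 0.159 with the second table of counts. Without control replicate 1 or TRF2 MuSC-cKO replicate 3 it was 0.113 and 0.14.

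Timp3, the matrix-bound inhibitor that also blocks ADAMTS enzymes, was at 214, 195, 138 and 187 CPM in control and 192, 252, 203 and 247 CPM in TRF2 MuSC-cKO libraries. With all 16 libraries scaled together the groups overlap, with 2 control libraries above the lowest TRF2 MuSC-cKO library, and with the 8 uninjured libraries scaled alone they do not. The log2 fold change was 0.41 (SE 0.19, adjusted p = 0.236 by edgeR). Timp1, an inducible inhibitor, had 6, 3, 1 and 6 counts in control libraries and 0, 4, 1 and 0 counts in TRF2 MuSC-cKO libraries, where a count of 0 allows up to 3.44 and 3.99 CPM (3 counts, counting error only).

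Adamts1 was at 464, 344, 347 and 415 CPM in control libraries and at 215, 252, 299 and 298 CPM in TRF2 MuSC-cKO libraries. Its groups did not overlap, but the log2 fold change of -0.44 (SE 0.19) did not pass the test (adjusted p = 0.191, edgeR). Adamts5 was at 155 ± 31.0 and 142 ± 18.1 CPM (adjusted p = 0.999, edgeR, SE of the log2 fold change 0.20).

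**Figure D1:**
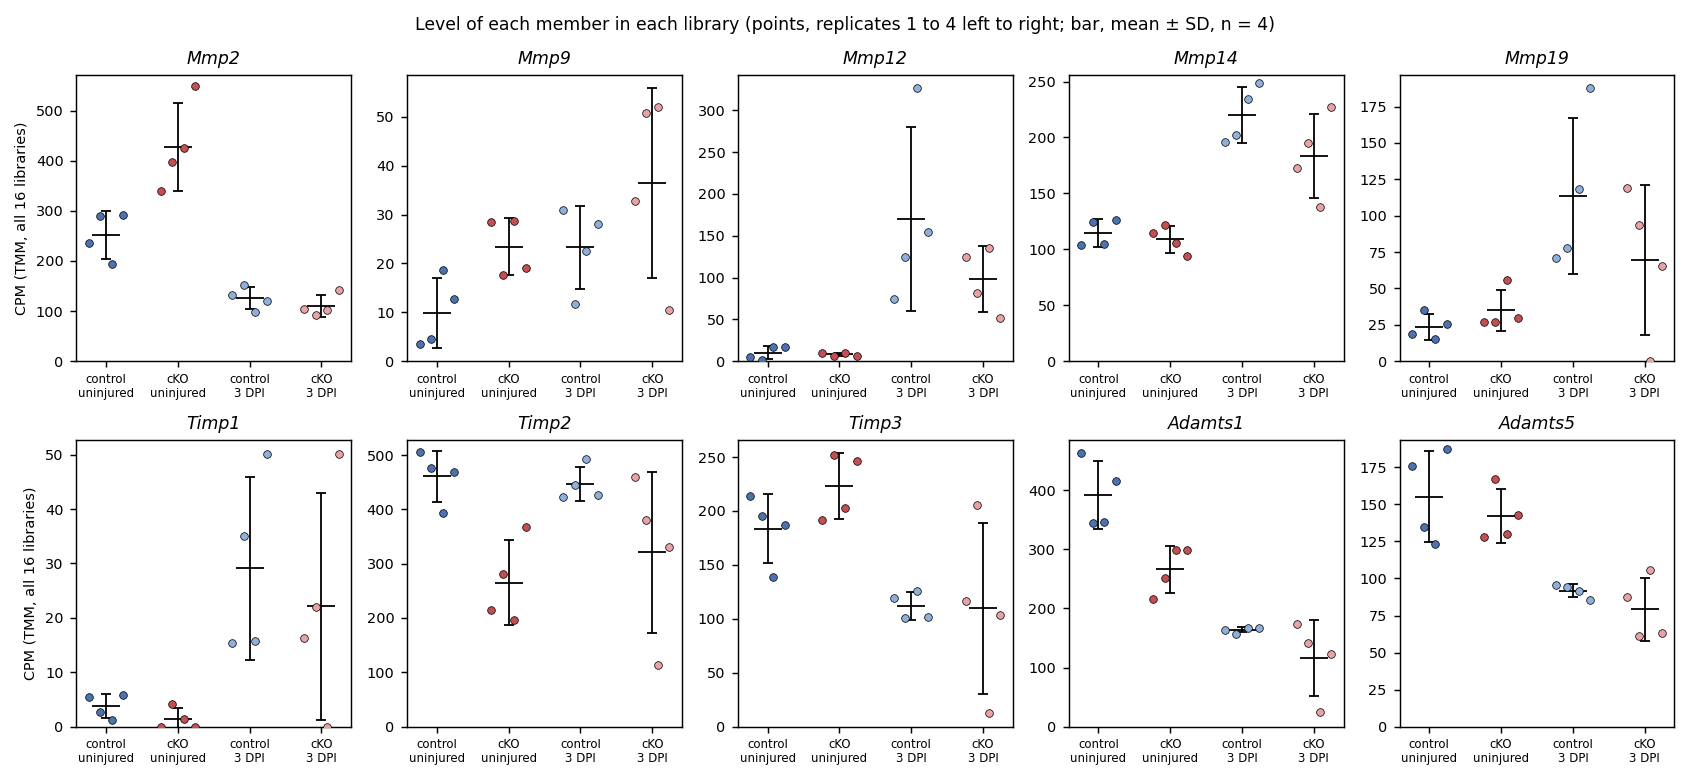
CPM of each member (vertical axis, linear, from 0) in the 16 libraries, by group, with the mean and SD of 4 libraries. Mmp2 is highest in the uninjured TRF2 MuSC-cKO libraries (339.7 to 549 CPM), and Mmp12, Mmp14, Mmp19 and Timp1 are higher in control libraries at 3 DPI than in uninjured control libraries.

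Some marker genes of other cells and of MuSCs also differed between the uninjured genotypes, where 0.584% of all genes were called higher and 2.63% lower. The summed level of 10 MuSC genes was 2904 to 4986 CPM in control and 1904 to 2505 CPM in TRF2 MuSC-cKO libraries, with 7 of 10 called lower. The sum of 14 macrophage genes was 106 to 171 against 181 to 215 CPM (0 of 8 tested were called), that of 6 Schwann cell genes 246 to 307 against 346 to 469 CPM (0 of 4 called), and that of 10 fibroadipogenic genes 391 to 561 against 284 to 389 CPM (1 of 7 called, Dpt, as lower). The sum of 8 pericyte and smooth muscle genes overlapped between the genotypes, at 880 to 1211 against 779 to 1793 CPM (2 of 7 tested were called, Rgs5 and Cspg4, as higher). None of the genes in these lists was at 0 in every library of a group. The part of these shifts in the differences of Mmp2, Timp2 and Adamts1 was not tested, and in bulk RNA a change in the number of cells of a type and a change in RNA per cell cannot be told apart.

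Because counts depend on transcript length, levels of different genes were compared only per length, as the deposited abundance-scaled counts on a common library total of 1000000. In uninjured control MuSCs Timp2 was highest at 286 ± 20.8, above Mmp2 at 187 ± 27.5 and Adamts1 at 179 ± 20.7, which overlapped each other. Mmp14 at 100.1 ± 8.77 and Timp3 at 87.4 ± 12.3 followed and overlapped, then Adamts5 at 42.3 ± 5.80. Mmp19, Timp1, Mmp9 and Mmp12 were at 15.9 or lower, each overlapping the next. In uninjured TRF2 MuSC-cKO MuSCs Mmp2 stood first at 397 ± 67.0, above the range of Timp2 at 205 ± 52.1. Timp2 overlapped Adamts1 (152 ± 18.4), which overlapped Timp3 (133 ± 11.8), and Timp3 overlapped Mmp14 (119.9 ± 16.2).

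**Figure D2:**
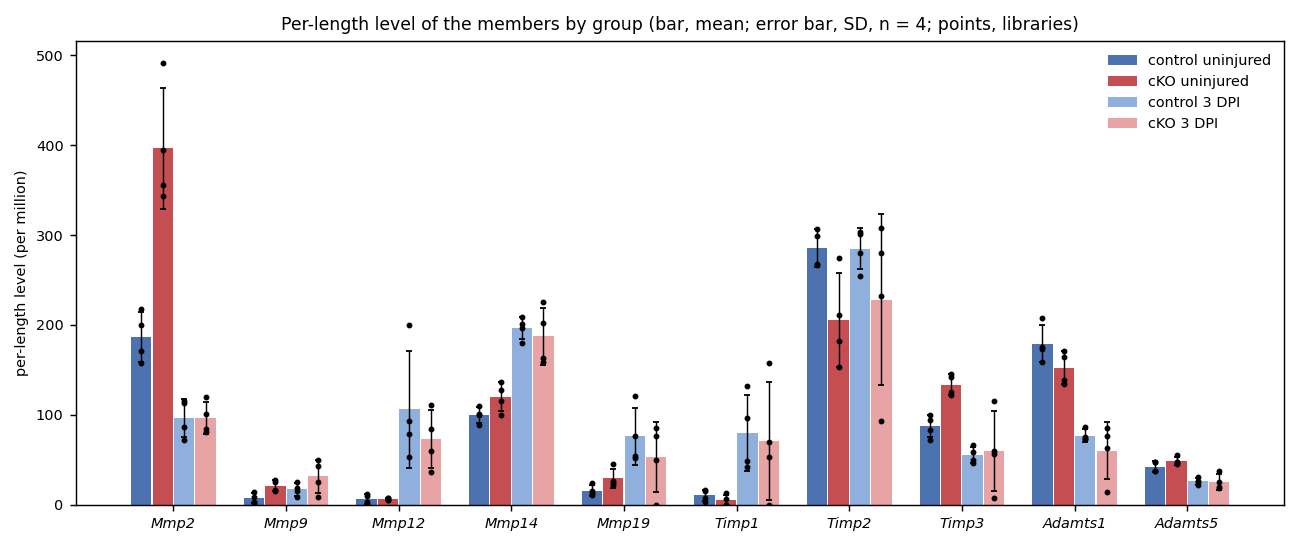
Mean per-length level (vertical axis, abundance-scaled counts per library total of 1000000, from 0) of each member in the 4 groups, with the SD and the 4 libraries as points. Timp2 leads in both control groups (286 and 285), and Mmp2 leads in uninjured TRF2 MuSC-cKO MuSCs (397).

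The per-length ratio of Timp2 to Mmp2 within a library was 1.80, 1.37, 1.70 and 1.34 in uninjured control MuSCs and 0.530, 0.592, 0.388 and 0.560 in uninjured TRF2 MuSC-cKO MuSCs. Timp2 transcripts thus outnumbered Mmp2 transcripts in each control library, and Mmp2 transcripts outnumbered Timp2 transcripts in each TRF2 MuSC-cKO library. The ratio of the summed 3 TIMPs to the summed 5 MMPs was 1.23 ± 0.201 in control and 0.5998 ± 0.0988 in TRF2 MuSC-cKO MuSCs. Behind it, the MMP sum was 316 ± 36.1 and 574 ± 49.9, and the TIMP sum was 384 ± 36.0 and 344 ± 61.3. The ratios do not depend on scaling between libraries, but the sums do, and they used library totals without TMM. With TMM, Mmp2 was at 253 ± 47.8 and 428 ± 88.2 CPM and Timp2 at 461 ± 47.2 and 265 ± 77.5 CPM. The sums therefore do not tell how much of the ratio lies with either family. Mmp2 made up 59.0% ± 3.83 of the MMP sum in control and 68.8% ± 5.84 in TRF2 MuSC-cKO MuSCs, and Timp2 made up 74.6% ± 2.36 and 59.2% ± 4.92 of the TIMP sum. These ratios combine members and are given as a description without a test.

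**Figure D3:**
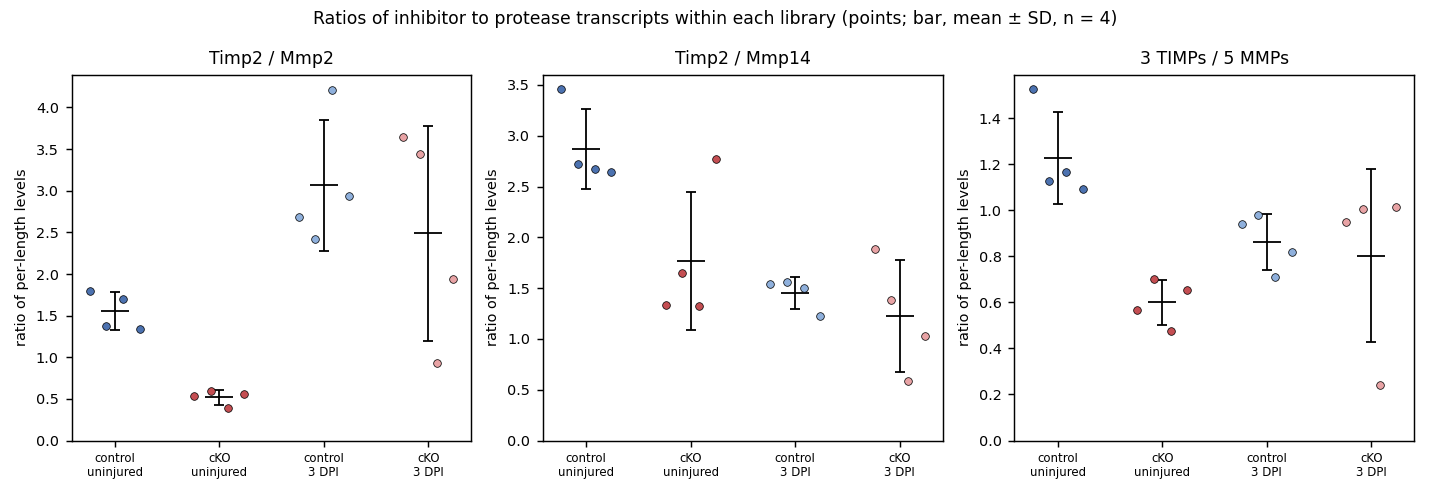
Ratio of per-length levels within each library (vertical axis, linear, from 0) for Timp2 to Mmp2, Timp2 to Mmp14 and the 3 TIMPs to the 5 MMPs, with the mean and SD of 4 libraries per group. The ratio of Timp2 to Mmp2 lies at 1.34 to 1.80 in uninjured control libraries, at 0.388 to 0.592 in uninjured TRF2 MuSC-cKO libraries and at 2.43 to 4.21 in control libraries at 3 DPI.

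The second comparison asked how the members change in control MuSCs between uninjured muscle and 3 DPI. The members moved in opposite directions. Mmp12, Mmp14, Mmp19 and Timp1 rose and Mmp2, Timp3, Adamts1 and Adamts5 fell, so that 8 of the 10 members were called, against 20.2% of the 15356 genes tested (10.8% as higher and 9.46% as lower, 1652 and 1452 genes, or 1989 and 1066 genes when scaled by library total alone). The groups of these 8 members did not overlap, which held for 24.5% of all genes, and 9 of the 10 members had an unadjusted p under 0.05 against 32.5% of all genes. The median log2 fold change was 0.49 over the members and 0.07 over all genes. Mmp12 and Timp1 had too few counts to be tested in uninjured MuSCs and entered this test through their 3 DPI counts. Their calls are therefore given as a description only. With at least 10 counts in every library neither was tested, and 5 members were called. Without uninjured replicate 1, 5 members were called (Mmp2, Mmp14, Mmp19, Timp1 and Adamts1). The uninjured control libraries of this comparison are the same as in the first one.

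Mmp12 had the largest log2 fold change among the members. It was at 5.36, 1.80, 17.4 and 16.6 CPM in uninjured and at 74.1, 125, 327 and 155 CPM in 3 DPI control libraries, with the third 3 DPI library highest. The log2 fold change was 4.14 (SE 0.72, adjusted p = 0.00501 by edgeR), and the call was lost without uninjured replicate 1 (adjusted p = 0.0236). With 2 to 17 counts per uninjured library, Mmp12 passed the filter on low counts only through its 3 DPI libraries. The call is therefore a description and no separate support for a rise. Mmp12 went from 2.08% ± 1.76 to 20.8% ± 10.2 of the per-length MMP sum.

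Mmp14 was at 104, 124, 105 and 126 CPM in uninjured and at 196, 202, 234 and 249 CPM in 3 DPI control libraries. The 3 DPI libraries lay closely together above all uninjured ones, with a log2 fold change of 0.99 (SE 0.19, adjusted p = 7.08e-05 by edgeR). Mmp19 was at 18.8, 35.1, 15.1 and 25.4 CPM in uninjured and at 71.0, 77.8, 118 and 188 CPM in 3 DPI libraries. Its log2 fold change was 2.31 (SE 0.30, adjusted p = 6.2e-08 by edgeR), and its call was lost with all 16 libraries in 1 fit (adjusted p = 0.0266). Mmp9 was at 30.9, 11.7, 22.6 and 28.0 CPM at 3 DPI, overlapped its uninjured range and missed the threshold (log2 fold change 1.29, SE 0.50, adjusted p = 0.0524 by edgeR); without uninjured replicate 3 it passed (adjusted p = 0.0104).

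Mmp2 took the other direction. It fell to 131, 153, 98.4 and 121 CPM in the 3 DPI control libraries, all below the lowest uninjured library at 193 CPM. The log2 fold change was -0.97 (SE 0.20, adjusted p = 0.000134 by edgeR). Its share of the per-length MMP sum went from 59.0% to 20.3% ± 6.81, and Mmp14 with 40.2% ± 3.67 was the largest part at 3 DPI. The MMP sum itself, on library totals without TMM, was 316 ± 36.1 and 493 ± 64.1.

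Each of the 3 inhibitors did something different. Timp1 was at 15.4, 35.0, 15.7 and 50.2 CPM at 3 DPI against 1.16 to 5.85 CPM in uninjured libraries. Its log2 fold change was 2.95 (SE 0.53, adjusted p = 2.01e-05 by edgeR), and it was not called with all 16 libraries in 1 fit (adjusted p = 0.0277). The value rests on 10 to 61 counts per library at 3 DPI and on 1 to 6 counts per uninjured library. Timp1 passed the filter on low counts only through its 3 DPI libraries, so the call is a description. Timp2 was at 423, 444, 493 and 427 CPM, inside the range of its uninjured libraries (log2 fold change -0.0044, SE 0.18). Timp3 fell from 184 ± 32.1 to 119, 101.1, 126 and 101.2 CPM (log2 fold change -0.68, SE 0.20, adjusted p = 0.00771 by edgeR). This call of Timp3 was lost without uninjured replicate 1 or 2 or without 3 DPI replicate 2 or 4 (adjusted p = 0.0421, 0.0222, 0.0333 and 0.0289). It was also lost with library size alone (0.0365), with at least 10 counts in every library (a fold change under 1.5), with all 16 libraries in 1 fit (0.352), with the replicate block (0.0221) and with the second table of counts (0.02).

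Both ADAMTS members fell. Adamts1 was at 164, 158, 167 and 166 CPM at 3 DPI, an SD of 4.36, against 344 to 464 CPM in uninjured libraries (log2 fold change -1.22, SE 0.19, adjusted p = 1.16e-06 by edgeR). Adamts5 was at 95.8, 94.3, 91.5 and 85.6 CPM against 123 to 187 CPM (log2 fold change -0.72, SE 0.20, adjusted p = 0.0057 by edgeR), and its call was lost without uninjured replicate 1 or 4 or 3 DPI replicate 4 (adjusted p = 0.028, 0.0268 and 0.0202). It was also lost with library size alone, all 16 libraries in 1 fit and the second table of counts (adjusted p = 0.0299, 0.0361 and 0.0248).

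In per-length levels Timp2 was first at 3 DPI (285 ± 22.6), above Mmp14 (197 ± 12.1). Mmp12, Mmp2, Timp1, Adamts1, Mmp19 and Timp3 lay between 106 and 55.2, each overlapping the next. The ratio of Timp2 to Mmp2 was 2.69, 2.43, 4.21 and 2.94, above the uninjured control range, whereas the ratio of Timp2 to Mmp14 was 1.45 ± 0.158 against 2.87 ± 0.392. The ratio of the summed TIMPs to the summed MMPs was 0.864 ± 0.122.

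**Figure D4:**
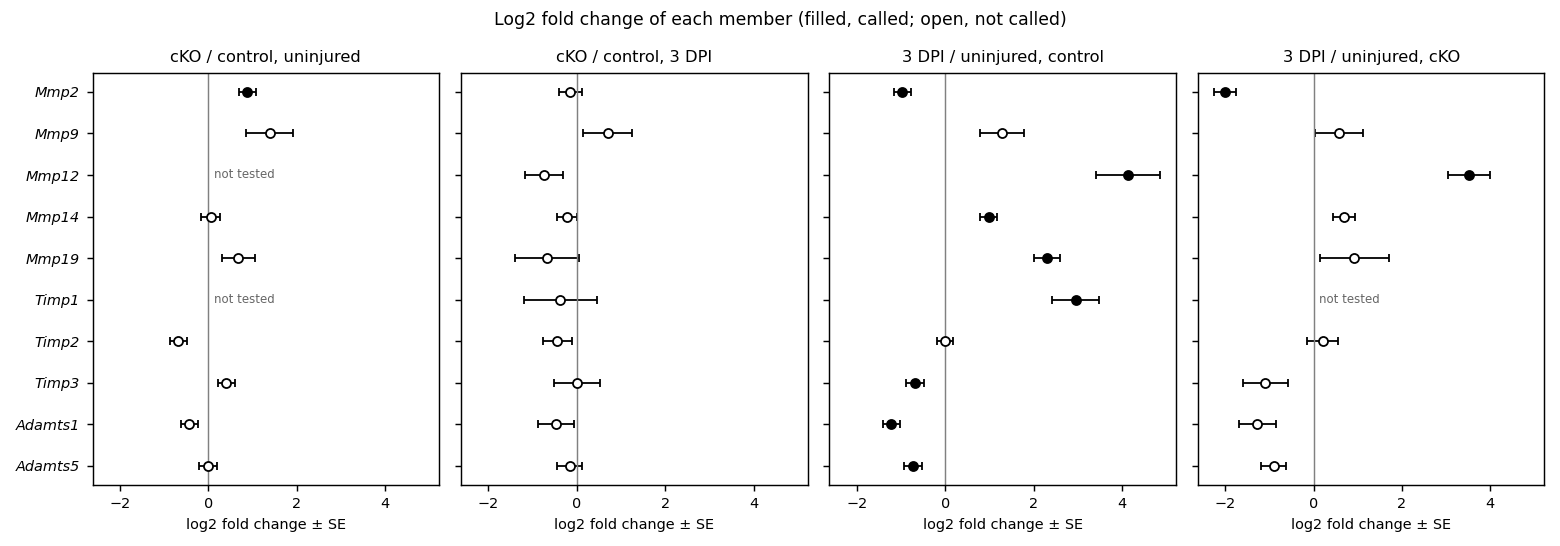
Log2 fold change with its SE (horizontal axis) of each member in the 4 comparisons of 2 groups, filled where called. In control MuSCs after injury 4 members are filled to the right of 0 and 4 to the left, and between the genotypes only Mmp2 in uninjured MuSCs is filled, at 0.88.

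Macrophage transcripts moved with these results, in a comparison where 10.8% of all genes were called higher and 9.46% lower. The sum of the 14 macrophage genes was 106 to 171 CPM in uninjured and 6932 to 9037 CPM in 3 DPI control libraries, and 14 of 14 were called higher with a median log2 fold change of 5.53. They include Ptprc and Itgam, the genes of CD45 and CD11b, against which the cells were sorted. Over the same libraries the sum of the 10 MuSC genes went from 2904 to 4986 CPM down to 772 to 1102 CPM, with 9 of 10 called lower, and Pax7 from 1217 ± 313 to 152 ± 27.5 CPM. The sum of 7 neutrophil genes was 26.7 to 54.0 and 93.8 to 135 CPM with 1 of 3 tested called higher (Csf3r), and that of 10 fibroadipogenic genes was 391 to 561 and 408 to 483 CPM with 4 called higher and 2 lower. Between uninjured genotypes 8 of the 14 macrophage, 2 of the 7 neutrophil and 7 of the 10 fibroadipogenic genes had enough counts to be tested. Calls of genes that entered through their 3 DPI counts are therefore a description. That of the 8 pericyte and smooth muscle genes was lower at 3 DPI with no overlap, at 880 to 1211 and 602.3 to 869.5 CPM, with 1 of 7 tested called (Acta2, as lower). The part of macrophage or other non-MuSC transcripts in the rise of Mmp12, Mmp14, Mmp19 and Timp1, and that of the lower MuSC or pericyte and smooth muscle transcripts in the fall of Mmp2, Timp3, Adamts1 and Adamts5, was not tested.

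**Figure D5:**
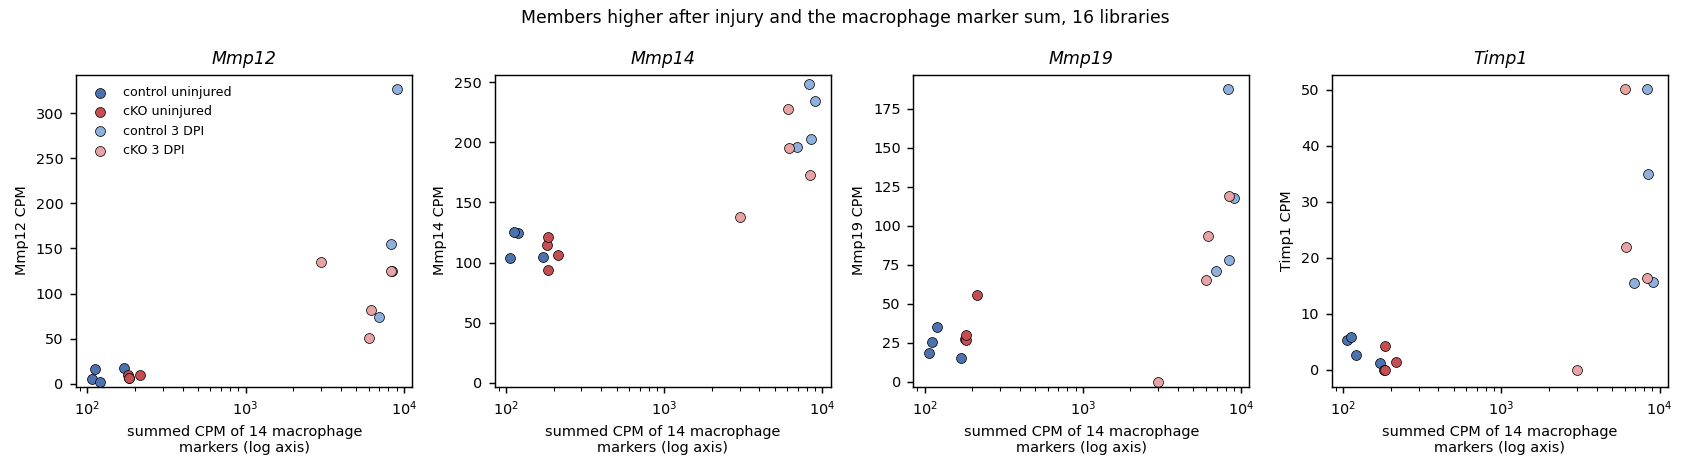
CPM of Mmp12, Mmp14, Mmp19 and Timp1 (vertical axes, linear) against the summed CPM of 14 macrophage genes (horizontal axis, log scale) in the 16 libraries. The uninjured libraries lie at a sum of 106 to 215 CPM and the 3 DPI libraries at 3009 to 9037 CPM, so the marker sum and injury move together.

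In the libraries labelled TRF2 MuSC-cKO, 3 DPI was compared with uninjured muscle in the same way. Mmp2 fell and Mmp12 rose, and these were the 2 of 9 members tested that were called, against 4.04% of the 14578 genes tested (2.43% as higher and 1.61% as lower). Mmp12, with 5 to 8 counts per uninjured library, entered this test through its 3 DPI counts, so its call is a description. With at least 10 counts in every library it was not tested, and 1 member, Mmp2, was called. The median log2 fold change was 0.21 over the members and 0.01 over all genes, and groups did not overlap for 5 of the 9 members (Mmp2, Mmp12, Mmp14, Adamts1 and Adamts5) against 14.1% of all genes. An unadjusted p under 0.05 was found for 6 of the 9 members and 16.4% of all genes. The uninjured TRF2 MuSC-cKO libraries are those of the first comparison.

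Mmp2 was at 105, 92.3, 103 and 142 CPM at 3 DPI, below every uninjured library of that genotype. The log2 fold change was -2.01 (SE 0.25, adjusted p = 0.000173 by edgeR), and it was -1.96 (adjusted p = 1e-06) without the library that stood apart. Mmp12 was at 125, 81.9, 135 and 51.3 CPM against 6.23 to 10.0 CPM, with a log2 fold change of 3.52 (SE 0.47, adjusted p = 0.000285 by edgeR) and of 3.35 without that library. Both calls were thus present with and without it.

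Several members were near 0 or far below their group in the library that stood apart. Mmp19 was at 119, 93.4, 0 and 65.2 CPM, Timp1 at 16.4, 21.9, 0 and 50.1 CPM and Timp3 at 117, 205, 12.4 and 104 CPM. Timp2 was at 459, 381, 113 and 331 CPM and Adamts1 at 174, 142, 24.8 and 122 CPM. In each case replicate 3 was the lowest, and its zeros allow up to 3.57 CPM (3 counts). Mmp2, Mmp9, Mmp12 and Adamts5 were not lowest in it, with Adamts5 at 87.6, 61.1, 105 and 62.9 CPM.

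Without that library, 6 of 10 members tested were called, and the share of all genes called went from 4.04% to 8.46% (1316 of 15547). Mmp12, Mmp19 (log2 fold change 1.37, SE 0.35, adjusted p = 0.00771) and Timp1 (4.13, SE 0.88, adjusted p = 0.00116) were higher at 3 DPI by edgeR. Timp1, with 0 to 4 counts per uninjured library, entered this fit through its 3 DPI counts, as Mmp12 did, so these calls are a description. Mmp2, Adamts1 (-0.91, SE 0.25, adjusted p = 0.0119) and Adamts5 (-1.05, SE 0.27, adjusted p = 0.0086) were lower. With all 4 libraries Mmp19 had a log2 fold change of 0.92 (SE 0.78, adjusted p = 0.657), Adamts1 of -1.27 (SE 0.41, adjusted p = 0.104) and Adamts5 of -0.90 (SE 0.28, adjusted p = 0.0865), and Timp1 was not tested. Mmp14, at 173, 195, 138 and 227 CPM, did not pass with that library (log2 fold change 0.68, adjusted p = 0.16) or without it (0.82, adjusted p = 0.0252). The macrophage sum in these libraries was 8337, 6166, 3009 and 6049 CPM, lowest in replicate 3, with 12 of 14 genes called higher than in uninjured libraries, and the MuSC sum was 420 to 652 CPM with 6 of 10 called lower. As in control MuSCs, calls of macrophage genes that entered through their 3 DPI counts are a description. The sum of the neutrophil genes was also higher with no overlap, at 104.8 to 192.6 CPM against 47.2 to 71.0 CPM in uninjured libraries of that genotype.

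The next comparison asked whether the members differ between genotypes at 3 DPI. None of the 10 members was called (edgeR), and none of the 14559 genes tested was (0%; 1362, or 9.36%, had an unadjusted p under 0.05, DESeq2 called 22 and limma's robust fit 28). No member had an unadjusted p under 0.05, 0 were called by DESeq2 or limma, and the groups of every member overlapped, while 7.65% of all genes did not overlap. Mmp2 was at 126 ± 22.6 CPM in control and 111 ± 21.7 CPM in the libraries labelled TRF2 MuSC-cKO (log2 fold change -0.14, SE 0.25). Mmp12 was at 170.0 ± 109.5 and 98.3 ± 38.9 CPM (log2 fold change -0.74, SE 0.43, adjusted p = 0.612 by edgeR), and Timp2 at 447 ± 32.0 and 321 ± 148 CPM (log2 fold change -0.44, SE 0.33, adjusted p = 0.685). A p above the threshold does not show that the levels were equal. Without the library that stood apart the log2 fold change of Mmp2 was -0.13, that of Mmp12 -0.97 (SE 0.46) and that of Timp2 -0.18 (SE 0.20). That of Adamts1 went from -0.46 to -0.14, that of Mmp19 from -0.68 to -0.29 and that of Timp3 from 0.01 to 0.37, again with 0 of 10 members called and with 16 of 15430 genes called (0.104%). The sum of the MuSC genes was 772 to 1102 CPM in control and 420 to 652 CPM in the libraries labelled TRF2 MuSC-cKO. That of the macrophage genes was 6932 to 9037 and 3009 to 8337 CPM. The part of these sums in the levels of the members was not tested.

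Across genotypes the per-length order of means at 3 DPI had Timp2 (285 and 228) and Mmp14 (197 and 187) in the first 2 places in both groups. Their ranges overlapped in the libraries labelled TRF2 MuSC-cKO, and the order was turned in the library that stood apart, with a ratio of Timp2 to Mmp14 of 0.587. The ratio of Timp2 to Mmp2 was 3.64, 3.44, 0.927 and 1.94 in the libraries labelled TRF2 MuSC-cKO, with the lowest value in the library that stood apart. In the same libraries the ratio of summed TIMPs to summed MMPs was 0.951, 1.01, 0.240 and 1.02.

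Whether the effect of injury differed between genotypes was tested as an interaction over all 16 libraries. None of the 10 members was called by edgeR, DESeq2 or limma (1 had an unadjusted p under 0.05, against 5.74% of all genes), and 3 of the 16822 genes tested were by edgeR (0.0178%). Over all genes DESeq2 called 24 and limma's robust fit 123, and edgeR called 13 without the library that stood apart. The difference was largest relative to its error for Mmp2, which had a log2 interaction of -0.94 (SE 0.33), the unadjusted p of 0.00758 becoming 0.638 after adjustment by edgeR. Fitted separately on 8 libraries each, Mmp2 fell by 2.01 in TRF2 MuSC-cKO and by 0.97 in control MuSCs, from unequal starting levels to 3 DPI levels that overlap, and these need not add up to the interaction, which was fitted on all 16. Without the library that stood apart the interaction of Mmp2 was -1.02 (SE 0.32, adjusted p = 0.267 by edgeR), with 0 of 10 members called. The adjusted p of the other 9 members was 0.94 or higher.

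Other proteolysis genes were counted from lists of known family members. Of 18 other MMPs, 8 were tested in uninjured MuSCs and 0 were called between genotypes by edgeR, with log2 fold changes of 0.34 for Mmp17 to 1.53 for Mmp25. Their median was 0.80 against 0.06 over all genes, and 3 of 8 had an unadjusted p under 0.05, against 19.5% of all genes. The nearest to the threshold was Mmp24, with 1.25 (SE 0.35, adjusted p = 0.0248 by edgeR). In the other 3 comparisons of 2 groups none of the 9 or 10 other MMPs tested was called (unadjusted p under 0.05 for 2, 3 and 0 of them, against 9.36%, 32.5% and 16.4% of all genes). Of 10 genes of the plasminogen system and of MMP activation, 8 were tested in uninjured MuSCs, and 2 were called between genotypes, 1 lower and 1 higher, against 2.63% and 0.584% of all genes. Plau, the gene of urokinase, which activates plasminogen, was at 93.0 ± 14.2 CPM in control and 31.6 ± 4.95 CPM in TRF2 MuSC-cKO MuSCs, with a log2 fold change of -1.44 (SE 0.27, adjusted p = 0.000502 by edgeR). Serpine2, an inhibitor of urokinase and thrombin, was at 48.8 ± 3.59 and 102 ± 22.7 CPM (log2 fold change 1.19, SE 0.25, adjusted p = 0.00167 by edgeR). Of 7 substrates of the ADAMTS family 1 was called higher and 0 lower, and 4 had an unadjusted p under 0.05. Their median log2 fold change was 0.68. In the interaction 0 of the 10 plasminogen and activation genes were called, while 5 had an unadjusted p under 0.05, against 5.74% of all genes.

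After injury in control MuSCs, where 10.8% of all genes were called higher and 9.46% lower, 6 of 10 membrane ADAM proteases rose and none fell, led by Adam8, a protease of leukocytes, from 7.15 ± 6.45 to 362 ± 70.9 CPM (log2 fold change 5.66, SE 0.41, adjusted p = 3.6e-09 by edgeR). The others were Adam9, Adam10, Adam15, Adam17 and Adam19, with log2 fold changes of 0.69 to 2.03. All 10 ADAM genes were tested here, against 9 between uninjured genotypes. The call of a gene that entered through its 3 DPI counts, as Mmp12 did, is a description, and Adam8 was low in uninjured libraries. Of 17 other ADAMTS genes, 1 was called higher and 4 lower. Adamts2, the procollagen N-proteinase, rose by 0.82 on the log2 scale, and Adamts9, Adamts10, Adamts15 and Adamts20 fell, with log2 fold changes of -0.66, -2.30, -2.32 and -1.47. Of the 10 genes of the plasminogen system and of MMP activation, 3 were called higher and 1 lower. Plau rose by 1.64, Plaur, the urokinase receptor, by 3.57 and Furin, a proprotein convertase that activates MMP14, by 0.73. Of this list 10 genes were tested here and 8 between uninjured genotypes, so the same limit holds. Among 7 substrates of the ADAMTS family Vcan (versican), Dcn (decorin) and Nid1 (nidogen) rose by 1.77, 1.59 and 0.64. Of 7 other inhibitors and clearance receptors only Spock1, a matrix proteoglycan, was called, with a fall by 1.53.

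In the libraries labelled TRF2 MuSC-cKO 4.04% of all genes were called after injury, and of these lists 3 of 10 ADAM, 2 of 17 other ADAMTS, 2 of 9 plasminogen and 1 of 7 substrate genes tested. Plau rose by 2.42, Adam8 by 4.31, Adam15 by 1.40, Adam19 by 1.34 and Vcan by 1.29 on the log2 scale, and Serpine2, Adamts10 and Adamts20 fell, with log2 fold changes of -2.62, -2.01 and -1.60. All 8 were also called without the library that stood apart, with log2 fold changes of 2.52 for Plau, 4.73 for Adam8, 1.60 for Adam15, 1.54 for Adam19, 1.38 for Vcan, -2.37 for Serpine2, -1.90 for Adamts10 and -1.40 for Adamts20. The macrophage sums given above moved with these genes too. As in control MuSCs, calls of list genes that entered through their 3 DPI counts are a description.

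The patterns of the members over the 16 libraries were compared with those of all 12214 genes whose mean log2 CPM reached 4 by Pearson's r, as a description in which every pair shares the libraries and their 4 groups. Mmp2 was most like Fat1 (r = 0.943), Trp53inp1 (0.920) and Nr1d2 (0.916), and Mmp12 was most like Fxyd5 (0.964), Cybb (0.962) and Cd53 (0.961). The genes nearest to Mmp14 were Arpc1b (0.957), Arhgdib (0.956) and 4632428N05Rik (0.953), and those nearest to Mmp19 were Scly (0.948), Manf (0.932) and Psmb8 (0.931). Timp2 ran closest to Bcap31 (0.940) and Timp3 to Grik5 (0.964). Adamts1 had the closest neighbours of all members, Cnn3 and Mybpc1 at 0.985 and Foxo1 at 0.982, and Adamts5 was nearest to Znf512b (0.941). Mmp9, which had few counts, reached 0.869 with Nova1, and Timp1 was below the level required.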

How the data were processed

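MuSC RNA was depleted of ribosomal RNA, made into libraries with the CORALL kit, which keeps the strand and adds molecular identifiers, and sequenced. The authors trimmed the reads with Trim Galore 0.6.7, aligned them to Ensembl GRCm38 with STAR (2.6.1d in the submitters' processing notes) and quantified them with Salmon 1.5.2. They deposited estimated counts per gene, not normalized, and a second table of estimated counts scaled by abundance. Whether identifiers were used to collapse reads and which strand setting was used are not given in the sources used here, so counting limits cover counting error only. Groups and replicate numbers came from the sample titles.

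The estimated counts were rounded, and edgeR 4.0.16 (R 4.3.3) was used to drop low genes (filterByExpr), to apply TMM and to run its quasi-likelihood test, robust, on the libraries of the 2 groups compared, or on all 16 for the interaction, with Benjamini-Hochberg adjustment over all genes tested. Called genes had an adjusted p under 0.02 and a fold change over 1.5, the first threshold taken from the methods of the study and the second from the legend of its heatmap. The SE is the log2 fold change over the square root of the test statistic. Printed CPM used TMM over all 16 libraries, log2 CPM a prior count of 2, and per-length levels the abundance-scaled table on a total of 1000000. A lower count of 3 was the floor for counts of 0. The procedure was tested on simulated counts. Alternatives were limma 3.58.1 (robust fit), DESeq2 1.42.0, other scalings and filters, all 16 libraries in 1 fit, a replicate block, the second table, libraries of 1 name code and leaving out each library. The biological coefficient of variation was 0.297 between uninjured genotypes and 0.495 at 3 DPI.

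All members were named in every comparison, with called genes of the protease lists (1 is not reported here), the 3 most alike genes by Pearson's r, defining markers and Terf2. The members, gene lists and marker lists were chosen with earlier results of these data known. No replicate pair agreed within sampling noise (lowest chi-square per gene 2.968).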

Additional observations from a re-analysis of the deposited data

Results flagged for a closer look

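Of 40 groups of 4 libraries (10 members in 4 groups) tested for a library far from the others, 1 was picked out, and chance alone picks out about 1 in 20 groups. Mmp19 was at 55.8 CPM in replicate 3 of the uninjured TRF2 MuSC-cKO libraries and at 27.0 to 29.96 CPM in the other 3, a gap of 0.898 of the whole range and above Dixon's 95% critical value. The macrophage sum was also highest in that library of its group (215 against 181 to 184 CPM); its part in the Mmp19 level was not tested.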

How the results depend on the processing

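Of the alternatives for single members, 784 values kept direction and side of the threshold, 33 changed side only and 43 changed sign, all of the last kind for members that were not called. Counts of called members changed as follows. In uninjured MuSCs the 1 member became 0 with limma, all 16 libraries in 1 fit or the second table, and 2 with DESeq2, no filter or the replicate block (0 to 2 when leaving out 1 library). In control MuSCs after injury the 8 members became 5 with at least 10 counts in every library, where Mmp12 and Timp1 were not tested and Timp3 had a fold change under 1.5, 6 with library size alone or the second table, and 4 in the fit of all 16 libraries (Mmp2, Mmp12, Mmp14 and Adamts1), with 5 to 9 when leaving out 1. In the libraries labelled TRF2 MuSC-cKO the 2 members became 1 with at least 10 counts (Mmp12 was not tested) and 4 in the fit of all 16 (2 to 6 when leaving out 1). The cause of the other changes was not tested.

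Over all genes, the 452 calls between uninjured genotypes became 299 with limma, 82 in the fit of all 16 and 17 with the second table (259 to 574 when leaving out 1, lowest without control replicate 1, and 265, 275 and 295 without control replicate 2, control replicate 4 and TRF2 MuSC-cKO replicate 1). The 0 calls at 3 DPI became 28 with limma, 22 with DESeq2, 3 in the fit of all 16 and 1 with the 4 libraries of the name code that both genotypes share (0 to 16, the latter without the library that stood apart). The 3104 calls after injury in control MuSCs became 1595 in the fit of all 16. The 589 calls after injury in TRF2 MuSC-cKO became 1020 with limma, 994 with DESeq2, 1204 in the fit of all 16 and 283 with the second table (358 to 1316, the latter without the library that stood apart). The 3 interaction calls became 123 with limma, 24 with DESeq2, 8 with at least 10 counts and 1 with the second table (1 to 13). No name code holds both genotypes in uninjured muscle.

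The sign changes were these. In uninjured MuSCs the log2 fold change of Adamts5 became 0.0080 with limma, 0.19 with library size alone, 0.0765 with at least 10 counts and 0.0077 with the replicate block, and that of Mmp14 -0.0197 without a filter and -0.0699 in the fit of all 16 (-0.11 to 0.0546 and -0.0143 to 0.11 when leaving out 1). At 3 DPI Timp3 became -0.0614 without a filter, -0.0248 in the fit of all 16, -0.0201 with the second table and -0.34 with the block, and Mmp12 and Mmp19 0.0531 and 0.52 within 1 name code (leaving out 1, Timp3 ran from -0.50 to 0.37 and Timp1 from -1.17 to 0.0124). Timp2 after injury became 0.16 with library size alone and 0.10 with at least 10 counts (-0.10 to 0.0286 in control and -0.0194 to 0.52 in TRF2 MuSC-cKO when leaving out 1). The interaction of Adamts1 became -0.13, -0.0486, -0.0196 and -0.0482 with library size alone, no filter, at least 10 counts and the block (leaving out 1, Adamts1 ran from -0.20 to 0.29, Adamts5 from -0.36 to 0.0258 and Mmp12 from -0.83 to 0.0411). With library size alone the all-gene median moved from 0.06 to 0.24 between uninjured genotypes, from 0.001 to 0.107 at 3 DPI, from 0.066 to 0.229 with injury in control MuSCs, and from 0.007 to 0.125 with injury in TRF2 MuSC-cKO.

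With the replicate number as a block, 2 members were called in uninjured MuSCs (Mmp2, and Timp2 at adjusted p = 0.0112 by edgeR), 7 in control MuSCs after injury (Timp3 was lost) and 2 in TRF2 MuSC-cKO, and the calls of all genes became 364 after injury in TRF2 MuSC-cKO and 1 in the interaction. Libraries with the same number deviated together at correlations of -0.103 to 0.119, and not every library correlated best with its own number, so the numbers are not taken to pair the libraries. Depth limits the members with few counts, Timp1 and Mmp12 in uninjured and Mmp9 in all libraries. Mmp19 had an SE of 0.73 to 0.91 in the comparisons that hold the 3 DPI libraries labelled TRF2 MuSC-cKO. Without the library that stood apart, where Mmp19 had a count of 0, its SE was 0.30 between genotypes at 3 DPI. After injury in TRF2 MuSC-cKO it was then 0.35.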
